A study of Mus musculus with 49 samples.

Results

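Transcript levels were compared between CT26 tumours labelled R and NR for response among all tumours that received an antibody against PD-1, alone or together with celecoxib. These were 33 of the 49 tumours measured, chosen by their treatment label: 16 R and 17 NR. Of the 17 tumours given anti-PD-1 alone, 4 were R and 13 NR. Of the 16 given the combination, 12 were R and 4 NR. Response was therefore unevenly spread over the treatments, and treatment was a term of the model, so that each R tumour was set against the NR tumours of its own treatment.

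CT26 is a mouse colorectal carcinoma line, here grown as tumours in Balb/c mice, and RNA came from bulk tumours. From day 7 after injection, mice received vehicle (9 tumours), celecoxib at 30 mg/kg daily (7 tumours), 2 doses of 200 µg anti-PD-1, or both agents, for 7 days. The tissue label places the tumours at day 7 of treatment and the extraction protocol at day 4, which the sources used here do not settle. The labels do not define R and NR, and the 16 tumours without antibody are all NR; they served only as a background level. The labels name 1 cell line and 1 mouse strain and do not say whether every tumour had its own mouse; the p values cover only the spread among these samples, which may be partly technical.

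PD-1 is an inhibitory receptor on activated T cells, and blocking it can free T cells that recognise tumour antigens. Activated T cells and NK cells secrete interferon-gamma, which induces antigen presentation, the ligand PD-L1 (Cd274) and chemokines in tumour and myeloid cells. Celecoxib inhibits COX-2, the inducible enzyme encoded by Ptgs2 that starts prostaglandin synthesis; prostaglandin E2 can dampen T cell and dendritic cell function in tumours. Tumour cells short of oxygen stabilise hypoxia-inducible factors, which switch on glucose uptake, glycolysis and vessel growth factors.

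Library totals of the 33 tumours ran from 5315321 to 13671294 counts, with medians of 7699573 in R and 7670623 in NR. Total counts, the number of genes with a count and the share of mitochondrial counts were each compared by permuting R and NR within treatments (exact permutation test, two-sided, 4331600 relabellings). The p values were 0.923, 0.769 and 0.355, and all 3 were 0.923 after the Benjamini-Hochberg adjustment over the 3 tests. The leucocyte gene Ptprc ran from 17.2 to 503 CPM (counts scaled to a common library total). Of the epithelial markers, Krt18 ran from 2.16 to 44.3 CPM, while Epcam had no count in 9 R and 5 NR libraries. In 9 libraries markers of muscle stood high: 3 NR and 2 R under anti-PD-1 and 4 R under the combination. None of the 33 passed the limit set for skin or fat, where the highest list means were 2.28 and 4.30 log2 CPM. Each list result below was therefore also computed in the 24 other tumours.

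No gene passed the limit of 0.05 on the adjusted p in edgeR's quasi-likelihood test of R against NR (0% of 13926 genes), and the smallest adjusted p was 0.0866. At an unadjusted p under 0.05 there were 1753 genes, 875 higher in R (6.28% of those tested) and 878 lower (6.3%). The median log2 difference over all genes was 0.02, with 53% of genes above 0. The same counts with DESeq2 and limma-voom gave 86 genes (52 higher, 34 lower) and 0 genes past an adjusted p of 0.05. Of the 86, 84 had an unadjusted p under 0.05 in edgeR. The differences described here are log2, R minus NR, with their standard errors (SE), and all of them missed the limit in edgeR. Gene levels are CPM scaled by TMM, which corrects library totals for their make-up.

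**Figure D1:**
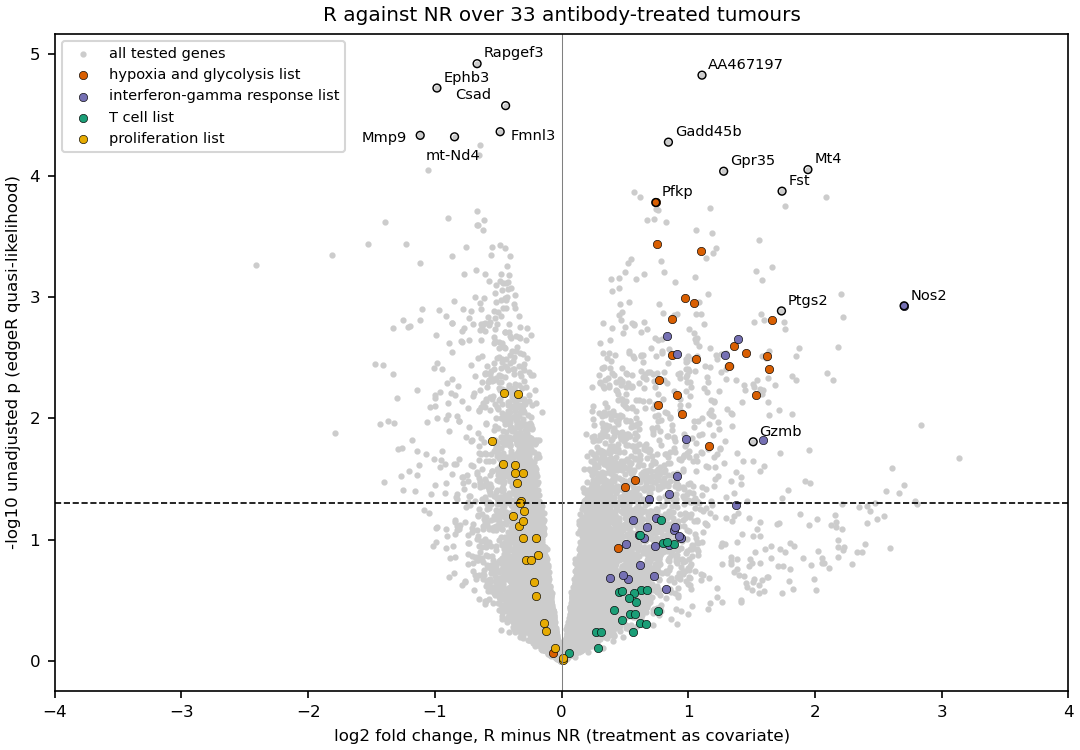
Each point is 1 of 13926 genes, with the log2 difference of R minus NR on the horizontal axis and -log10 of the unadjusted p of edgeR on the vertical axis; the dashed line marks p = 0.05. The hypoxia and glycolysis list lies to the right of 0 (23 of 24) and mostly above the line (22 of 24), the T cell list lies to the right of 0 and below it (24 of 24).

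The 5 genes of smallest p on the higher side were AA467197, Gadd45b, Mt4, Gpr35 and Fst. AA467197 (chr2:122636986-122641191, GRCm38, + strand) encodes a small mitochondrial protein related to the respiratory chain subunit Ndufa4. In the 4 R tumours under anti-PD-1 it stood at 274, 147, 140 and 129 CPM, and in the 13 NR tumours it ran from 33 over a median of 53.4 to 118. Under the combination the 12 R tumours ran from 41.3 over 117 to 171 CPM, and the 4 NR tumours stood at 89.9, 81.0, 46.5 and 31.5. The 2 labels did not overlap under anti-PD-1 and overlapped under the combination. The fitted log2 difference was 1.11 (SE 0.22, adjusted p = 0.0866), with 15 of 16 R tumours above the NR median of their own treatment. The tumours without antibody, from 40.9 to 118 CPM, covered much the same range as NR.

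Gadd45b (chr10:80930073-80932204, + strand), a stress-induced regulator of growth arrest and survival signalling, was the second. Its 4 anti-PD-1 R tumours stood at 41.2, 33.1, 22.3 and 17.4 CPM against 11.9 to 25.1 (median 13.6) in NR. Under the combination R ran from 20.1 over 26.7 to 64.1 CPM, and NR stood at 18, 17.7, 15.8 and 14. There the lowest R tumour lay above the highest NR tumour. The log2 difference was 0.84 (SE 0.18, adjusted p = 0.0866). The tumours without antibody spanned 11.7 to 41 CPM, with a median of 22.9 between those of NR and R.

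Fst encodes follistatin, a secreted protein that binds and blocks activins. It had 40.7, 34.5, 29.4 and 20.7 CPM in the anti-PD-1 R tumours and 4.85 to 24.7 (median 8.66) in NR. With the combination, R ran from 4.84 over 20 to 145 CPM and NR stood at 13.4, 10.2, 5.74 and 3.86. Fitted over both treatments, the log2 difference was 1.74 (SE 0.40, adjusted p = 0.114), with 15 of 16 R tumours above their NR median. Gpr35, a G protein-coupled receptor, differed by 1.28 (SE 0.29, adjusted p = 0.0982), and its R median of 13.8 CPM stood against 8.78 in NR. Mt4, a metallothionein (a small metal-binding protein), was a low-count gene with medians of 4.30 CPM in R and 1.24 in NR and a log2 difference of 1.94 (SE 0.44, adjusted p = 0.0982). The more abundant metallothioneins Mt1 and Mt2 lay on the same side, with log2 differences of 1.06 (SE 0.32, adjusted p = 0.161) and 1.06 (SE 0.26, adjusted p = 0.119). Mt1 and Mt2 are near copies, and reads may be split between them.

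On the lower side the 5 genes were Rapgef3, Ephb3, Csad, Fmnl3 and Mmp9. Rapgef3 (chr15:97744770-97767972, - strand) encodes Epac1, an exchange factor that cyclic AMP activates. It stood at 30.9, 23, 22.6 and 13.7 CPM in the anti-PD-1 R tumours and ran from 24.8 over 31.4 to 39.7 in NR. Among the combination tumours R ran from 13.6 over 23.2 to 32.2 CPM, and NR stood at 55.9, 38.3, 36.8 and 31.6. A single R tumour of each treatment reached into the NR range, and 0 of 16 lay above their NR median. The joint fit gave a log2 difference of -0.67 (SE 0.13, adjusted p = 0.0866).

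Mmp9 (chr2:164940780-164955850, + strand), a secreted matrix-degrading gelatinase made by myeloid cells among others, stood at 13.4, 13.3, 13.1 and 7.14 CPM in the anti-PD-1 R tumours. Their NR counterparts ran from 13.2 over 23.6 to 37.5 CPM. In the combination arm R ran from 3.43 over 12 to 29.8 CPM, and NR stood at 40.5, 27.3, 23.9 and 17.2. The highest combination R tumour exceeded 3 of the 4 NR tumours, and the R median of both treatments together was 12.4 CPM against 23.9 in NR. This was a log2 difference of -1.12 (SE 0.24, adjusted p = 0.0866). The tumours without antibody, all labelled NR, had a median of 15.5 CPM, nearer to R than to the antibody-treated NR tumours. Mmp9 is also on the neutrophil list, of which Ly6g had no count in any of the 33 libraries. The summed neutrophil list, which includes Mmp9, ran from 13.6 to 93.6 CPM in R and from 39.4 to 99.9 in NR. Of its 9 tested members 8 had a difference above 0, with a list median of 0.64, and Mmp9 alone lay below. At an unadjusted p under 0.05, 2 lay higher (Csf3r and Il1r2) and Mmp9 lower, against 6.28% and 6.3% of all genes. The part of neutrophils in the Mmp9 difference was not tested.

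Ephb3, a receptor for ephrin-B ligands, had a log2 difference of -0.98 (SE 0.20), and its 16 R tumours ran from 3.48 to 10.2 CPM against 6.21 to 25.7 in NR. Csad, an enzyme of taurine synthesis, differed by only -0.44 but with a small error (SE 0.09): R had 38.7 to 69.2 CPM and NR 52.9 to 83. Fmnl3, a formin that shapes the actin cytoskeleton, differed by -0.49 (SE 0.10), with R medians of 24.6 CPM against 33 in NR. The adjusted p of all 3 genes was 0.0866, and 0 of 16 R tumours lay above the NR median of their treatment for each. All 10 genes passed an adjusted p of 0.05 in DESeq2, with values from 0.00623 to 0.00805.

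**Figure D2:**
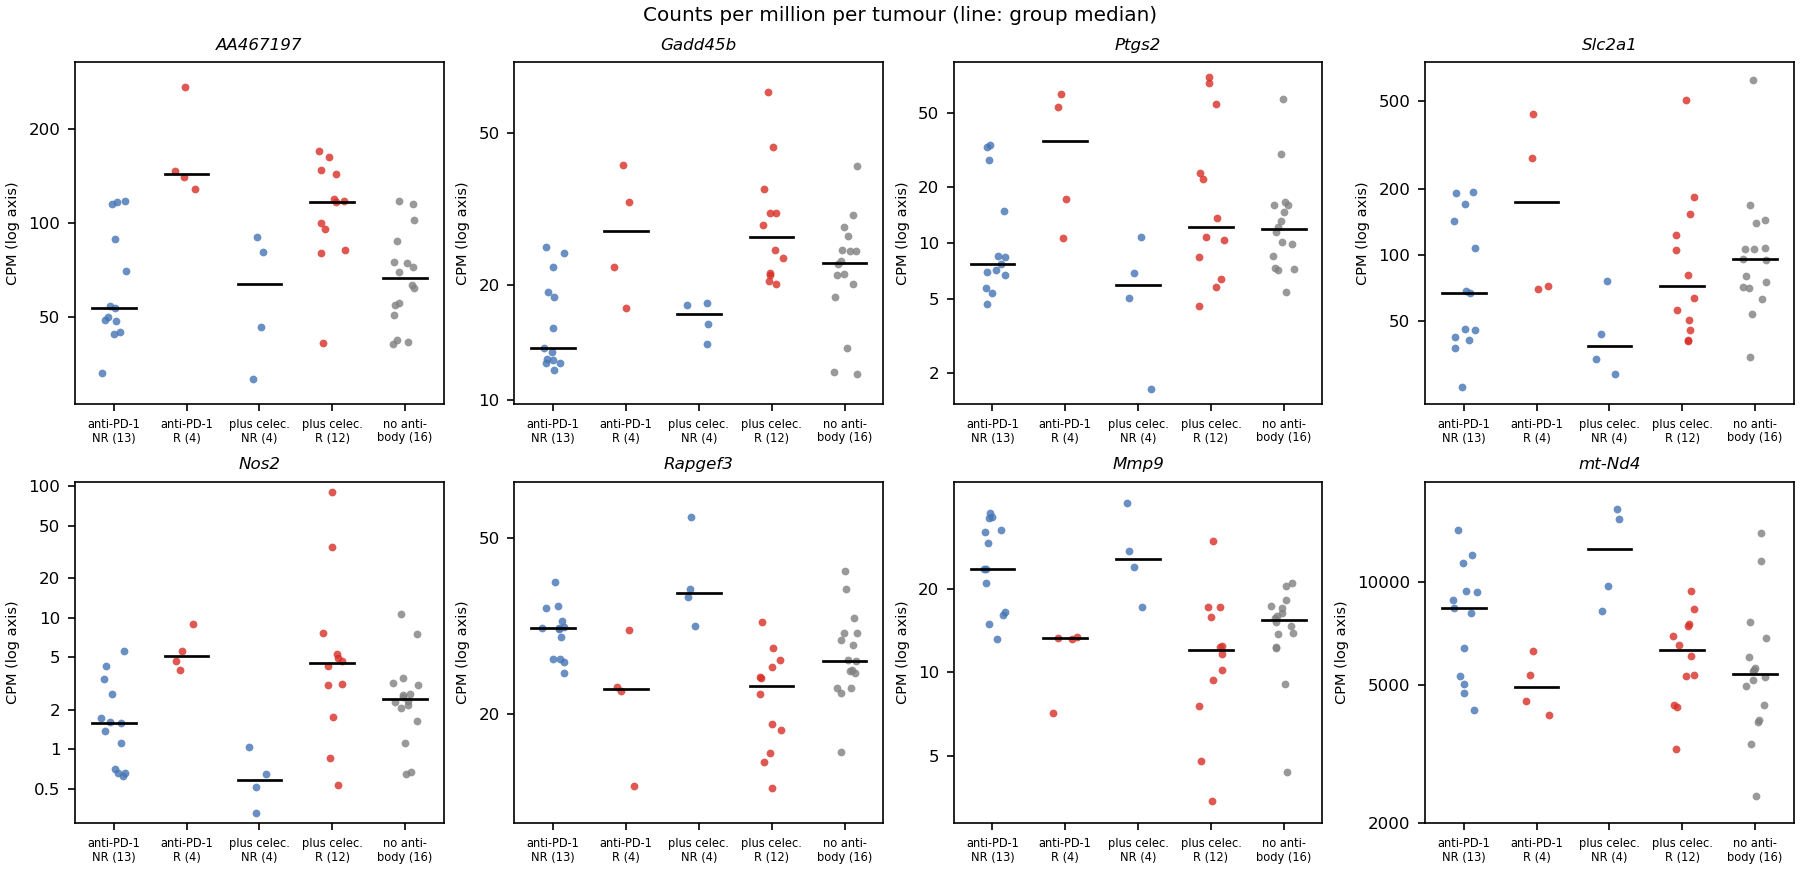
CPM on a log axis for 8 genes, 1 point per tumour, by treatment and response, with a line at each group median and the 16 tumours without antibody in grey. For AA467197 the 4 anti-PD-1 R tumours (129 to 274 CPM) lie above all 13 NR tumours, while for Mmp9 and Rapgef3 the R medians lie below the NR medians under both treatments.

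The hypoxia and glycolysis list lay mostly on the R side. Of its 24 tested members 22 had an unadjusted p under 0.05 with the higher level in R and 0 with the lower, against 6.28% and 6.3% of all genes. The list's median log2 difference was 0.96 against 0.02 over all genes, and 23 of 24 differences were above 0. None passed the adjusted limit in edgeR, whereas DESeq2 called 5 (Pfkp, Aldoa, Tpi1, Hk2 and P4ha1).

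Slc2a1, the main glucose transporter GLUT1, stood at 438, 275, 72.1 and 70.2 CPM in the anti-PD-1 R tumours, against 25.1 to 194 (median 66.9) in NR. With celecoxib added, R ran from 40.5 over 72.4 to 506 CPM and NR stood at 76, 43.6, 33.5 and 28.6. Both comparisons overlapped, and all 16 R tumours nonetheless lay above the NR median of their treatment. The log2 difference was 1.32 (SE 0.42, adjusted p = 0.18). The glycolytic enzymes followed: Pfkp, a phosphofructokinase, differed by 0.74 (SE 0.18, adjusted p = 0.114), Tpi1, triosephosphate isomerase, by 0.76 (SE 0.19, adjusted p = 0.128), and Hk2, hexokinase, by 1.04 (SE 0.29, adjusted p = 0.153). Aldoa, an aldolase, stood at 3239, 2610, 512 and 480 CPM in the anti-PD-1 R tumours and ran from 416 over 544 to 1466 in NR. In that treatment 2 R tumours carried the high values and 2 lay within the NR range. Its difference was 1.10 (SE 0.28, adjusted p = 0.131); copies of Aldoa elsewhere in the genome can share its reads, as can copies of Gapdh.

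Other members act outside glycolysis. P4ha1, which hydroxylates collagen, differed by 0.97 (SE 0.27), Ndrg1, a stress-response gene, by 1.66 (SE 0.48), Bnip3, a mitophagy receptor, by 1.36 (SE 0.42), and Egln3, an oxygen-sensing prolyl hydroxylase, by 0.95 (SE 0.35). Vegfa, the vessel growth factor, had a log2 difference of 1.06 (SE 0.33, adjusted p = 0.171). The list mean per tumour, in log2 CPM, was 8.51, 7.84, 6.24 and 5.99 in the anti-PD-1 R tumours and 5.60 to 7.25 in NR. Under the combination it ran from 5.83 over 6.28 to 8.28 in R and stood at 6.13, 5.81, 5.74 and 5.73 in NR. The R tumours above their NR median numbered 15 of 16, while the tumours without antibody spanned 5.74 to 8.68 and reached as high as any R tumour.

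The size of this difference leaned on some libraries. Without anti-PD-1 R tumour 2 16 of 24 members had an unadjusted p under 0.05, all among the 22, with a median of 0.69. In the 24 tumours without other tissue it was 16 of 24 with a median of 0.71, against 5.71% of all genes on the higher side. With the macrophage list as a covariate, added after the data were seen, it was 12 of 24 with a median of 0.62, against 7.48% of all genes. The median was 1.07 under anti-PD-1 and 0.86 under the combination, where 20 and 8 of the 24 had an unadjusted p under 0.05. Over all genes these shares were 5.94% and 7.82%. No member had an unadjusted p under 0.05 for the difference between the treatments, against 1.94% of all genes.

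Because these genes lay on the same side, their promoters were read for the core of the hypoxia response element, the letters ACGTG or GCGTG on either strand. The window was 250 bases before to 50 after the RefSeq start on GRCm38.p6, and the most upstream entry of each gene was used. Of 22 list members with a listed promoter, 18 held a match (81.8%), against 62% of 10276 promoters of tested genes and 43.8% of all 27025. The motif is short and was chosen after the data were seen, and a match is not a binding site. All tested members with a listed promoter were counted whatever their difference, and the list was drawn up for hypoxia and glycolysis. The share therefore describes the list and cannot bear on R against NR. Of the 4 members with the smallest p, Pfkp had 4 matches and P4ha1 3, and the windows of Tpi1 and Aldoa held none. The Pfkp and P4ha1 windows are shown because they hold the matches, in capitals, at chr13:6648722-6649021 (- strand) and chr10:59323046-59323345 (+ strand).
Pfkp: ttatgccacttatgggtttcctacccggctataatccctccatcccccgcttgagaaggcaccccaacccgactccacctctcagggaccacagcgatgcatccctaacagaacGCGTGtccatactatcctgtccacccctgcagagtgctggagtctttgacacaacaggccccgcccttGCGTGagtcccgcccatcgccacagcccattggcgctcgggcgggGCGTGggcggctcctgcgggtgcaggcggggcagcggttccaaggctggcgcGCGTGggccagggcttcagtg
P4ha1: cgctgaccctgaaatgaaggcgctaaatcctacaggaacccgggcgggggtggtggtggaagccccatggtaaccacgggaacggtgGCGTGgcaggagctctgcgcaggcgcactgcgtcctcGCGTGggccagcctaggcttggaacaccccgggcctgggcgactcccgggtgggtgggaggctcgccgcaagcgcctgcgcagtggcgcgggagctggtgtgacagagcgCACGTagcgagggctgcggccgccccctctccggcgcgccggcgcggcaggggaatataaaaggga

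All 29 tested members of the interferon-gamma response list had a difference above 0, with a median of 0.83. At an unadjusted p under 0.05 there were 10, all higher in R, against 6.28% of all genes on the higher side. They included Nos2, Wars, Tgtp1, Tgtp2, Irgm1, Ido1, Gbp2, Igtp, Cd274 and Gbp7.

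Nos2, the inducible nitric oxide synthase of activated macrophages, had the largest of these. It stood at 8.92, 5.54, 4.70 and 4.02 CPM in the anti-PD-1 R tumours and ran from 0.622 over 1.57 to 5.59 in NR. Under the combination it ran from 0.538 over 4.49 to 90.1 CPM in R and stood at 1.04, 0.653, 0.515 and 0.328 in NR. R and NR overlapped in both treatments, with 15 of 16 R tumours above their NR median. Fitted over both treatments, the log2 difference was 2.70 (SE 0.76, adjusted p = 0.153 in edgeR and 0.00623 in DESeq2). Wars, a tRNA synthetase that interferon-gamma induces, differed by 0.83 (SE 0.25, adjusted p = 0.16), and the immunity-related GTPase Irgm1 by 0.91 (SE 0.28, adjusted p = 0.17). Tgtp1 and Tgtp2 are near-identical neighbours whose reads cannot be split with certainty, with 1.40 (SE 0.42) and 1.29 (SE 0.40).

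Cd274, which encodes PD-L1, stood at 64.9, 47.2, 24.9 and 8.55 CPM in the anti-PD-1 R tumours, against 5.75 to 73.3 (median 16) in NR. Under the combination R ran from 10.2 over 65.6 to 160 CPM and NR stood at 66, 49.1, 15.1 and 11.1. The ranges overlapped widely and the log2 difference was 0.84 (SE 0.40, adjusted p = 0.377). Cxcl9, a chemokine that attracts T cells, differed by 0.93 (SE 0.54, adjusted p = 0.497). The type I interferon list, whose members answer mainly to other interferons, had 0 of 27 members at an unadjusted p under 0.05 in either direction and a median of 0.14.

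Single tumours moved the interferon-gamma count strongly. It was 23 of 29 without anti-PD-1 R tumour 2 and 6 without anti-PD-1 R tumour 4. It was 19 without anti-PD-1 NR tumour 2, 15 without anti-PD-1 NR tumour 11, and 7 without combination NR tumour 1 or tumour 3. Over all genes the share on the higher side ran from 5.31% to 6.66% in these fits. In the 24 tumours without other tissue the interferon-gamma count was 17 of 29, against 5.71% of all genes. The hypoxia and glycolysis list had 16 of 24 there and 22 of 24 in the fit to all 33 tumours. The interferon-gamma medians of all these settings lay between 0.63 and 0.997. The list mean, in log2 CPM, was 7.00, 6.52, 5.83 and 3.42 in the anti-PD-1 R tumours and 4.02 to 6.72 (median 4.83) in NR. The lowest of the 33 tumours on this list was thus an R tumour. With the combination, R ran from 4.29 over 6.59 to 7.28, NR stood at 6.20, 5.92, 4.83 and 4.39, and 13 of 16 R tumours lay above their NR median.

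In the fit to all 33 tumours, T cell transcripts differed less clearly between R and NR. All 24 members of the T cell list had a difference above 0, with a median of 0.57, and 0 of 24 had an unadjusted p under 0.05. In bulk tumours fewer cells of a type and less RNA per cell cannot be told apart. Cd8a, a chain of the cytotoxic T cell co-receptor, stood at 13.1, 5.03, 0.714 and 0.120 CPM in the anti-PD-1 R tumours and ran from 0.164 over 1.41 to 45.7 in NR. Among the combination tumours R ran from 0.715 over 18.6 to 83.7 CPM and NR stood at 16.9, 10.3, 1.31 and 0. Both pairs overlapped over most of their range, and the log2 difference was 0.56 (SE 0.98, adjusted p = 0.866). The T cell list median was -0.25 under anti-PD-1, where 6 of 24 members were above 0, and 1.38 under the combination, where all 24 were. For 2 of the 24 members the difference between treatments had an unadjusted p under 0.05, and none passed the adjusted limit, where the smallest adjusted p over all genes was 1. Anti-PD-1 R tumour 2 held the lowest T cell list mean of the 33 tumours (-0.61 log2 CPM), the lowest interferon-gamma mean (3.42) and the highest hypoxia and glycolysis mean (8.51), with a muscle list mean of 3.44. Without this tumour 5 of 24 T cell genes had an unadjusted p under 0.05, against 6.47% of all genes, and the median was 0.84. In the 24 tumours without other tissue it was also 5 of 24, against 5.71% of all genes on the higher side. The T cell list median there was 0.98.

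Cytotoxic lymphocyte genes had a list median of 0.82 with all 13 above 0, made of 0.10 under anti-PD-1 and 1.62 under the combination. Of these, 2 had an unadjusted p under 0.05, against 6.28% of all genes on the higher side: Gzmb and Gzmc, granzymes of killer cells. The count was 4 without anti-PD-1 R tumour 2 or anti-PD-1 NR tumour 2, 0 without anti-PD-1 R tumour 3 and 1 to 3 without each other library. Gzmb stood at 58.1, 54.6, 1.57 and 1.43 CPM in the anti-PD-1 R tumours, so that 2 lay above and 2 below the whole NR range of 6.43 to 52.6. In the combination arm R ran from 1.57 over 36.1 to 215 CPM and NR stood at 13.4, 13.3, 10.7 and 7.27. The joint fit gave a log2 difference of 1.51 (SE 0.59, adjusted p = 0.276). Ifng itself differed by 1.29 (SE 0.68, adjusted p = 0.443), Prf1, the pore-forming perforin, by 0.94 (SE 0.74, adjusted p = 0.646), and Pdcd1, which encodes PD-1, by 0.77 (SE 0.94, adjusted p = 0.787). Among 13 tested checkpoint and co-stimulatory receptors the median was 0.42. It was -0.14 under anti-PD-1, with 5 of 13 above 0, and 1.12 under the combination, with all 13. In the joint fit 1 had an unadjusted p under 0.05: Tnfrsf9, the co-stimulatory receptor 4-1BB, with 1.54 (SE 0.41, adjusted p = 0.138).

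Antigen presentation lists had medians above 0 in the fit over both treatments. MHC class I genes had a median of 0.38 (0.27 under anti-PD-1 and 0.49 under the combination). At an unadjusted p under 0.05 there was 1 of 19 (Psmb9, an immunoproteasome subunit), against 6.28% of all genes. That count was 6 without anti-PD-1 R tumour 2, 4 without anti-PD-1 NR tumour 2 and 0 to 3 without each other library. H2-K1 itself differed by 0.11 (SE 0.34, adjusted p = 0.93). MHC class II genes had a median of 0.39 and 0 of 11, with H2-Aa at 0.28 (SE 0.53, adjusted p = 0.877). The class II median was -0.08 under anti-PD-1, with 2 of 11 members above 0, and 0.98 under the combination, with all 11. Foxp3, the master regulator of regulatory T cells, differed by 0.38 (SE 0.36, adjusted p = 0.71). B cell and plasma cell lists kept 3 of 12 and 5 of 9 members in the test, with 0 at an unadjusted p under 0.05.

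**Figure D3:**
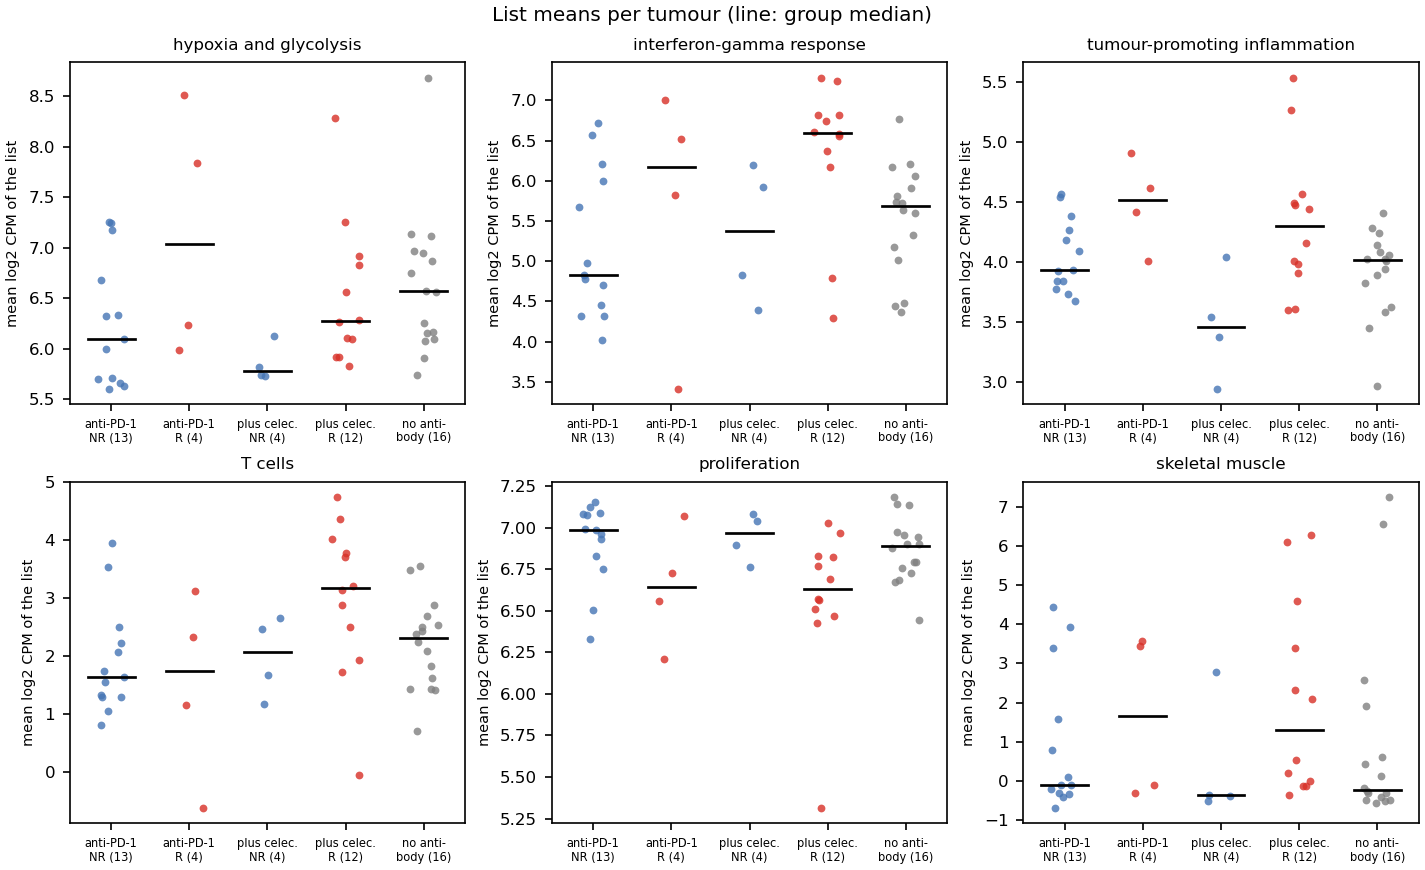
Mean log2 CPM of 6 gene lists, 1 point per tumour, by treatment and response, with a line at each group median and the 16 tumours without antibody in grey. In the hypoxia and glycolysis panel 15 of 16 R tumours lie above the NR median of their treatment; in the T cell panel 11 do, and the lowest point is an anti-PD-1 R tumour at -0.61.

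The list of tumour-promoting inflammation, cytokines and enzymes often linked to poor anti-tumour immunity, also lay on the R side. Of 13 tested members 7 had an unadjusted p under 0.05, all higher in R, against 6.28% of all genes. The median was 0.81. The mean of this list lay above the own-treatment NR median in 16 of 16 R tumours.

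Ptgs2, the target of celecoxib, stood at 62.9, 53.3, 17.1 and 10.6 CPM in the anti-PD-1 R tumours, against 4.71 to 33.7 (median 7.76) in NR. With celecoxib added, R ran from 4.60 over 12.2 to 77.7 CPM and NR stood at 10.8, 6.92, 5.05 and 1.64. R and NR overlapped in both treatments, and 14 of 16 R tumours lay above their NR median. This was a log2 difference of 1.73 (SE 0.49, adjusted p = 0.153 in edgeR and 0.0426 in DESeq2). It was 1.45 (SE 0.62) under anti-PD-1 and 2.06 (SE 0.78) under the combination. The constitutive isoform Ptgs1 lay on the other side, at -0.54 (SE 0.15, adjusted p = 0.153), as did the prostaglandin D synthase Ptgds at -0.79 (SE 0.28, adjusted p = 0.209). The whole prostaglandin pathway list had a median of 0.07, with 2 of 16 members at an unadjusted p under 0.05 on each side. Over all genes 6.28% lay higher and 6.3% lower.

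The neutrophil-attracting chemokine Cxcl1 stood at 22.3, 19.6, 12.8 and 8.91 CPM in the anti-PD-1 R tumours and ran from 3.54 over 9.25 to 31.6 in NR. Under the combination R ran from 7.18 over 15.0 to 67.5 CPM and NR stood at 7.86, 7.32, 4.96 and 4.75. The log2 difference was 1.18 (SE 0.41, adjusted p = 0.208), and 15 of 16 R tumours lay above their NR median. Cxcl2, its close relative, differed by 1.58 (SE 0.54, adjusted p = 0.199), the growth factor Areg by 1.31 (SE 0.47, adjusted p = 0.222) and the cytokine Tnf by 1.11 (SE 0.45, adjusted p = 0.294). Arg1, an arginine-consuming enzyme of myeloid cells, differed by 0.81 (SE 0.40, adjusted p = 0.402) and Il1b by 0.22 (SE 0.32, adjusted p = 0.835). Il6 was too low to test, at 0 to 0.971 CPM, with no count in 4 R and 8 NR libraries. In the 24 tumours without other tissue the list had 5 of 14 tested members at an unadjusted p under 0.05 and a median of 0.59. Over all genes 5.71% lay higher in that fit.

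Macrophage transcripts lay on both sides. Of 20 tested members 1 had an unadjusted p under 0.05 on the higher side (Mertk, a receptor for dying cells) and 2 on the lower (Mrc1, the mannose receptor, and Trem2), with a median of -0.09. Over all genes the shares were 6.28% and 6.3%. Csf1r, the receptor for the growth factor of macrophages, differed by -0.55 (SE 0.36, adjusted p = 0.561) and C1qa, a complement subunit, by -0.19 (SE 0.40, adjusted p = 0.891). The median was -0.41 under anti-PD-1 and 0.33 under the combination. With the T cell list as a covariate 12 of 20 members were lower in R at an unadjusted p under 0.05 and 1 higher, with a median of -0.51. Over all genes 7.95% were lower and 7.12% higher in that fit. There 3 of 3 B cell genes and 3 of 7 mast cell and basophil genes were also lower at that level. Lyve1, found on lymphatic endothelium and on some macrophages, differed by -1.23 (SE 0.31, adjusted p = 0.128 in edgeR), and DESeq2 called it.

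Proliferation genes lay mostly on the NR side. Of 26 members 10 had an unadjusted p under 0.05 with the lower level in R and 0 with the higher, against 6.3% and 6.28% of all genes. The list median was -0.30. Birc5, which encodes survivin, a mitotic regulator, stood at 293, 201, 185 and 163 CPM in the anti-PD-1 R tumours and ran from 177 over 260 to 399 in NR. With the combination, R ran from 73 over 200 to 273 CPM and NR stood at 333, 291, 285 and 264. The ranges overlapped, and 1 of 16 R tumours lay above its NR median. Fitted over both treatments, the log2 difference was -0.45 (SE 0.16, adjusted p = 0.198). Mcm2, a subunit of the replicative helicase, differed by -0.34 (SE 0.12, adjusted p = 0.199), the mitotic kinase Plk1 by -0.55 (SE 0.22, adjusted p = 0.275) and Mki67 by -0.33 (SE 0.16, adjusted p = 0.396). The count was 4 of 26 without anti-PD-1 R tumour 1, 6 without combination NR tumour 4 and 2 with the muscle list as a covariate. The medians were -0.24, -0.29 and -0.24. Over all genes 5.22%, 5.58% and 4.34% were lower in these fits, so the 2 of 26 lay near the share of all genes.

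Cholesterol synthesis genes had a median of -0.22. At an unadjusted p under 0.05 they had 5 of 21, all lower in R, against 6.3% of all genes. These were Mvk and Mvd of the mevalonate pathway, Cyp51, Acat2, and Insig1, a sterol sensor partner, from -0.41 to -0.71. The list median was -0.06 under anti-PD-1 and -0.41 under the combination. Without combination NR tumour 4 the list had 3 members and a median of -0.12, and with the muscle list as a covariate 2 members. Over all genes 5.58% and 4.34% were lower in these fits. Among 20 ribosome biogenesis and MYC targets 3 were lower in R at that level, against 6.3% of all genes, and the median was -0.10.

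Mitochondrially encoded transcripts included mt-Nd4, a complex I subunit on the lower side. It stood at 6312, 5363, 4511 and 4110 CPM in the anti-PD-1 R tumours and ran from 4254 over 8391 to 14145 in NR. Among the combination tumours R ran from 3269 over 6316 to 9411 CPM and NR stood at 16238, 15194, 9686 and 8206. No R tumour (0 of 16) lay above its NR median, although the ranges overlapped, and the log2 difference was -0.84 (SE 0.18, adjusted p = 0.0866). mt-Cytb, of complex III, differed by -0.52 (SE 0.14, adjusted p = 0.142) and mt-Nd1 by -0.31 (SE 0.12, adjusted p = 0.274). They were the 3 of 7 tested members at an unadjusted p under 0.05, against 6.3% of all genes on the lower side. The mitochondrial share of all counts averaged 4.42% ± 0.946 (SD, n = 4) in R and 4.97% ± 1.64 (n = 13) in NR under anti-PD-1, and 5.99% ± 2.42 (n = 12) and 6.87% ± 1.28 (n = 4) under the combination. Within treatments R was thus lower by 0.717 percentage points, which the exact permutation test above did not separate from the spread (p = 0.355). The tumours without antibody had a median mt-Nd4 of 5414 CPM, close to the R median of 5732.

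Markers of neighbouring tissue varied widely between tumours. In the joint fit the skeletal muscle list had all 23 differences above 0 and a median of 1.75, the highest of the lists. Yet 0 of 23 had an unadjusted p under 0.05 there. The median was 0.37 under anti-PD-1, with 19 of 23 above 0, and 3.275 under the combination, with all 23. Within these treatments 0 and 5 of 23 had an unadjusted p under 0.05, against 5.94% and 7.82% of all genes. The summed muscle list ran from 76.1 to 3909 CPM (median 179) in R and from 68.6 to 1104 (median 135) in NR. None of its 23 members was without counts over the 33 libraries. Mean muscle list values, in log2 CPM, were 3.58, 3.44, -0.11 and -0.31 in the anti-PD-1 R tumours. They were 2.78, -0.36, -0.37 and -0.50 in the combination NR tumours, where 1 tumour thus held the muscle transcripts. Adipocyte genes had a median of 0.996 (-0.44 under anti-PD-1 and 2.60 under the combination) with 1 of 7 at an unadjusted p under 0.05 (Plin4, a lipid droplet protein). Among Schwann cell genes 4 of 6 lay higher at that level, against 6.28% of all genes, with a median of 0.98. They included Mbp, which encodes a myelin protein, Ncmap, and Sox10, which was near 0 throughout (0 to 2.89 CPM). The Schwann count was 1 of 6 without anti-PD-1 R tumour 1 and 2 without combination NR tumour 1, against 5.49% and 5.39% of all genes. The part of neighbouring tissue in the other list differences was not tested beyond the values without the 9 libraries and with the muscle covariate. In these fits the hypoxia and glycolysis list had 16 and 19 of 24 members at an unadjusted p under 0.05. The shares of all genes on the higher side were 5.71% and 4.32%.

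Further lists held single genes of interest. Of 16 clock genes 4 lay higher and 1 lower at an unadjusted p under 0.05, against 6.28% and 6.3% of all genes. Bhlhe40, which also answers to hypoxia, differed by 1.19 (SE 0.30, adjusted p = 0.131) and the repressor Nfil3 by 0.76 (SE 0.23, adjusted p = 0.161). Bhlhe40 stood at 262, 138, 32.8 and 20.6 CPM in the anti-PD-1 R tumours and ran from 17.4 to 83.1 in NR, so that 2 R tumours lay above all NR tumours and 2 within them. Of the matrix and TGF-beta list 2 lay higher and 3 lower, with Thbs1 among those on the higher side, and Bgn, Tgfb3 and the protease Mmp3 on the lower. Among fibroblast genes 2 of 17 (Dpt and Lum) and among pericyte genes 2 of 9 (Pdgfrb and Mcam) were lower in R at that level, and 0 higher.

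Within single treatments no gene passed the adjusted limit in edgeR. Under anti-PD-1 alone (4 R, 13 NR) 827 genes had an unadjusted p under 0.05 and the smallest adjusted p was 0.802. Under the combination (12 R, 4 NR) there were 1089, with a smallest adjusted p of 0.142. For the difference between the 2 effects there were 270, with a smallest adjusted p of 1. DESeq2 called 0, 5 and 0 genes in these comparisons. Each gene ranked first in the joint fit had the same side in both treatments: Ephb3 differed by -0.99 (SE 0.30) and -0.98 (SE 0.27), Mmp9 by -1.12 (SE 0.37) and -1.11 (SE 0.33), and AA467197 by 1.33 (SE 0.30) and 0.87 (SE 0.34). The 10 were ranked on these same tumours, so the shared side is partly set by their choice. Nos2 had 1.51 (SE 0.79) under anti-PD-1 and 4.36 (SE 1.15) under the combination, a difference of 2.85 that did not pass (adjusted p = 1).

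**Figure D4:**
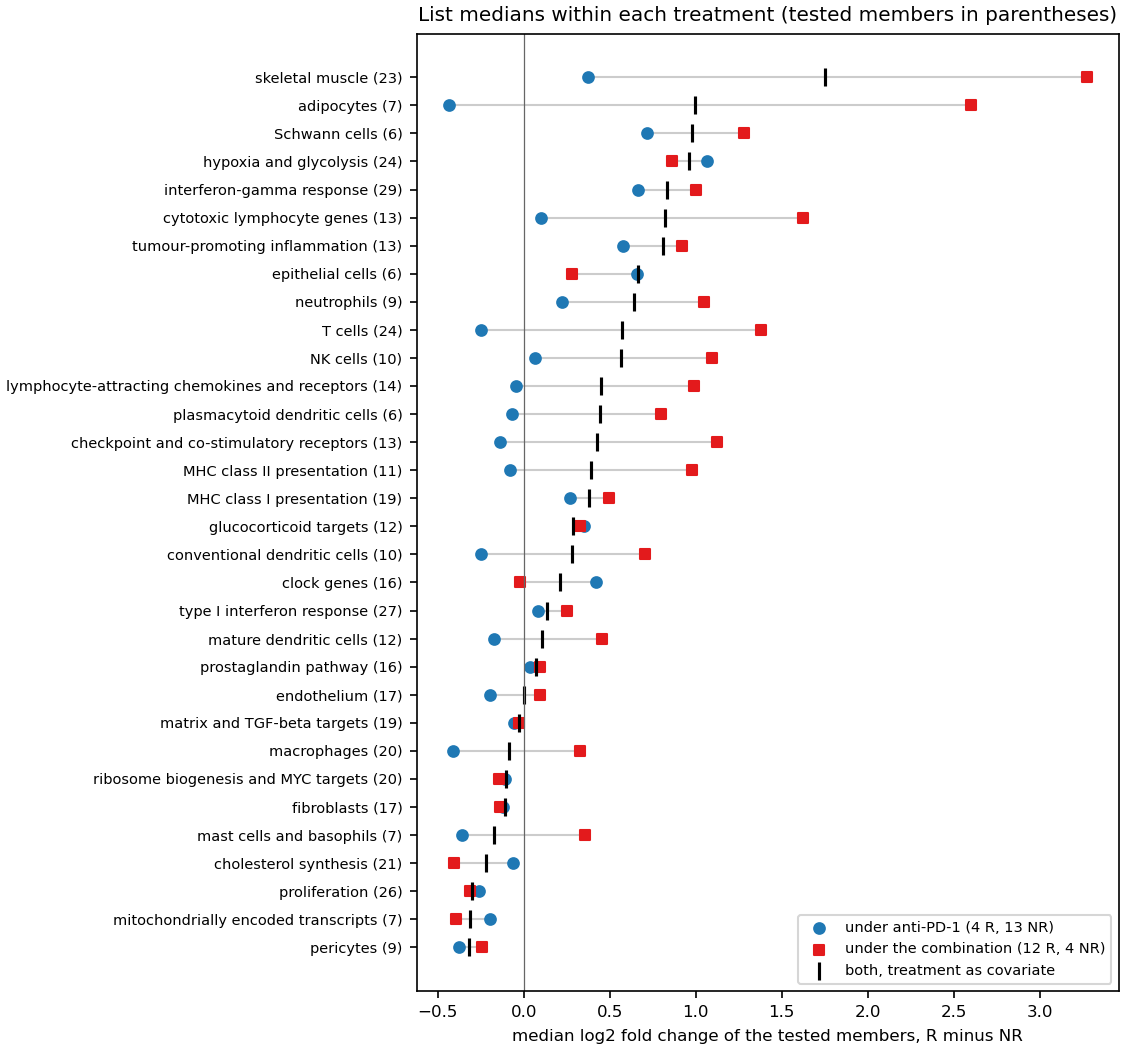
Median log2 difference, R minus NR, of the tested members of each list with at least 6 of them: circles under anti-PD-1, squares under the combination, bars for the fit over both treatments. Hypoxia and glycolysis (1.07 and 0.86) and proliferation (-0.26 and -0.31) lie close together in both treatments, whereas T cell genes (-0.25 and 1.38) and adipocyte genes (-0.44 and 2.60) lie on opposite sides of 0.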

How the data were processed

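Per the labels' protocols, tumour RNA went into QuantSeq 3′ FWD libraries, which read transcript 3′ ends. The deposited table holds raw counts per Ensembl gene for 39179 genes. The submitters' processing notes name bcl2fastq, STAR, featureCounts and limma with mm10 and GRCm38. Versions, annotation release and strand setting: not given in the sources used here. A deposited log2 CPM table was left unused. Symbols and coordinates came from GENCODE M21 on GRCm38.

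Counts were tested with edgeR 4.0.16 (R 4.3.3): filterByExpr on the 4 groups, TMM, robust quasi-likelihood fits of treatment plus response in 33 tumours, Benjamini-Hochberg over all genes, limit 0.05. A fit of the 4 groups gave the values within treatments and their difference. Each SE was derived from the test, as the absolute log2 difference divided by the square root of the quasi-likelihood F statistic. Log2 CPM used a prior count of 2. The script was tested on simulated data. Replicate numbers only name tumours. The most alike libraries had a Pearson r of 0.9943 over genes, and all were kept.

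The members and the 39 lists were chosen with earlier results of these data known. Genes were named by a rule. Had genes passed, up to 12 a side would have been named; as none did, the 5 of smallest p on each side with a mean of at least 2 CPM are named, leaving out predicted genes, pseudogenes and receptor segments. A panel of 24 genes was added, and, chosen after values were seen, members of lists with small p, including the 4 of smallest p of lists with at least 3 members at an unadjusted p under 0.05 on 1 side. A search of promoters for interferon motifs was planned only for 10 or more genes past the limit, and was not run. Libraries with other tissue were those whose mean log2 CPM exceeded 3 for the muscle list, or 5 for the skin or fat list. Alternatives were DESeq2 1.42.0, limma-voom (limma 3.58.1), other normalization and filters, no treatment term, all 49 tumours, equal weights, covariates and left-out libraries. A few list members are not reported here.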

Additional observations from a re-analysis of the deposited data

Results flagged for a closer look

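Single tumours were looked for in the groups of 4 (anti-PD-1 R and combination NR) by the gap between the outermost tumour and its neighbour as a share of the group's range against Dixon's limit for 4 values. Of 226 such checks over genes and lists 11 exceeded it. Chance gives about 1 in 20, so this number is about what chance alone would give. Values are log2 CPM.

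Among the anti-PD-1 R tumours, tumour 1 stood low for Mmp9 (2.88, the nearest at 3.74) and high for Ncmap (2.53 against 1.04) and Mmp3 (4.22 against 3.22). Tumour 2 had no Cd4 count (-2 against 1.44). Among the combination NR tumours, tumour 1 stood high for the skeletal muscle list (2.78 against -0.36). Tumour 2 stood low for Vegfa (5.35 against 5.99) and high for P4ha1 (6.14 against 5.72) and Plk1 (7.73 against 7.34). Tumour 3 stood high for Hlf (3.22 against 1.15). Tumour 4 was the only one with a Sox10 count (-1.13 against -2) and stood high for the cholesterol synthesis list (5.40 against 5.03). The Vegfa and P4ha1 values of combination NR tumour 2 lay on opposite sides, although both genes are on the hypoxia and glycolysis list. Whether anything but chance sets these tumours apart was not tested.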

How the results depend on the processing

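No paired analysis was possible because the labels give no replicate numbers shared between groups. The count of genes past the limit for R against NR was 0 in edgeR and 86 with DESeq2, 108 without the treatment term (all with an unadjusted p under 0.05 in the main fit, 40 shared with DESeq2), 7 with all 49 tumours, 6 with the T cell list as a covariate and 26 with the macrophage list as a covariate, which was chosen after seeing the data. It was 0 with limma-voom, RLE normalization, no filter, a stricter filter, the muscle or clock covariate, equal weights and without libraries of other tissue. Leaving out 1 library gave 0 to 14 genes: 14 without combination R tumour 7, 13 without anti-PD-1 NR tumour 1, 10 without anti-PD-1 NR tumour 9, and 1 each without anti-PD-1 R tumour 4 (Rapgef3) and combination NR tumour 1 (Ephb3). Under the combination DESeq2 called 5 genes. Within treatments and for their difference, leaving out each library of the groups of 4 gave 0 throughout. The cause of these shifts was not tested.

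The log2 difference changed sign for Cd8a (-0.09) and Cd4 (-0.21) with the T cell covariate and for Cd4 with limma-voom (-0.20). It did so for C1qa with the muscle covariate (0.042), without the treatment term (0.25) and without other tissue (0.17), for Il1b with the T cell covariate (-0.08) and without the treatment term (-0.082), and for mt-Nd5 without the treatment term (0.11). Leaving out 1 library moved H2-K1 between -0.031 and 0.323. None of these genes passed in any setting. The T cell list holds Cd8a and Cd4 themselves, so their shift with that covariate was largely built in. Leaving out 1 library, chosen after seeing the data, moved the total count per library, R against NR, between -504394 and 333147, and the genes with a count per library, R against NR, between -46 and 223. The interferon-gamma count was 26 of 29 without the treatment term and 27 with the macrophage covariate, above the 18 and 12 of 24 for hypoxia and glycolysis there, as it also was without anti-PD-1 R tumour 2 (23 and 16). It was 17 with the T cell covariate and 15 with DESeq2, and the T cell count 17 of 24 without the treatment term and 12 with the macrophage covariate. Over all genes 9.28% lay higher without the treatment term, 7.48% with the macrophage covariate, 7.12% with the T cell covariate and 8.01% with DESeq2. With 4 tumours in 1 group of each treatment, the median SE was 0.246 under anti-PD-1 and 0.250 under the combination, against 0.174 in the joint fit.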

Other observations

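Some lists showed other patterns. All 5 tested red blood cell genes had a difference below 0, with a median of -0.60. At an unadjusted p under 0.05 there was 1 of 5 (Hba-a2, an alpha globin), against 6.3% of all genes. The summed red blood cell list ran from 10.3 to 978 CPM (median 187) in R and from 33 to 640 (median 334) in NR. Globin genes are near copies, and reads may be split between them. Of 6 tested epithelial genes 2 lay higher in R at that level, against 6.28% of all genes. These were Krt8 and Krt20, both keratins of simple epithelia. The epithelial list median was 0.67 in this fit. Without the libraries with other tissue 0 epithelial genes lay higher at that level, and the list median was -0.09. With the muscle list as a covariate it was also 0 genes, with a median of 0.21. Krt8 had a median of 3.14 CPM in R and 4.33 in NR, so its fitted log2 difference of 1.02 (SE 0.50) within treatments was on the other side from the pooled medians. Among 17 endothelial genes Vwf was higher (1.003, SE 0.47) and Kdr, a receptor for Vegfa, lower (-0.43, SE 0.19), each with an adjusted p above 0.3 in edgeR (0.372 and 0.336).

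For several genes the tumours without antibody, all labelled NR, did not sit with the antibody-treated NR tumours. Their median was 15.5 CPM for Mmp9 (R 12.4, NR 23.9), 22.9 for Gadd45b (R 26.7, NR 15.4), 95.4 for Slc2a1 (R 76.5, NR 45.9) and 5414 for mt-Nd4 (R 5732, NR 8861). For AA467197 and Cd274 it was 66.4 (R 124, NR 53.4) and 18.4 (R 60.6, NR 16). These are values side by side, and no test was made.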
